A study of Mus musculus with 4 samples.

Results

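The comparison described here set Mitf knock-in mouse embryonic fibroblasts (MEFs) given doxycycline (Dox) for 6 days against the same kind of cells without Dox. It used 2 of the 4 libraries of the series, both from passage 5, and asked which functional classes of genes stood higher or lower once the transgene was switched on. The deposited values, from sequencing of poly(A) RNA, were read counts of single exons scaled to exon length and library size (RPKM), and the level of a gene was taken as its highest exon. Of 22823 genes, 13300 exceeded 10 RPKM in either library or in both and were compared. Among these, 218 genes (1.64% of the genes compared) were more than 4-fold higher in the Dox (+) library and 719 (5.41%) were more than 4-fold lower.

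All Mitf knock-in cells carried the M2 reverse tetracycline transactivator at the ROSA26 locus and a Dox-responsive Mitf cassette, the melanocyte isoform, targeted downstream of Col1a1. The Dox (-) library therefore shared the transactivator and the uninduced transgene with the Dox (+) library, and differed from it by the drug as well as by the transgene's expression, 2 differences that cannot be told apart. The cells went back to 1 correctly targeted clone of KH2 embryonic stem cells, injected into host blastocysts, and fibroblasts were grown from mid-gestation chimeric embryos. Transgenic cells were purified through their mCherry and puromycin resistance markers, so host cells that escaped the selection may remain. A wild-type MEF library from passage 3 is given beside single genes and list sums for reference, and it differs from both others in genotype and passage. Its values were taken as deposited, and for some genes, Mitf among them, they differ from those listed for that group in the study's supplementary data, so comparisons with it are less certain. The fourth library, from melanocytes, was not analysed here. Each condition had 1 library, so no difference below has a replicate check, no test was made, and counting intervals (95%) cover the counting of reads only.

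MITF is a basic helix-loop-helix leucine zipper factor that binds E-boxes and drives the genes of pigment synthesis and melanosome transport in melanocytes. Its relatives TFEB, TFE3 and TFEC bind closely related sequences in genes of the lysosome and the proton pump, and share with MITF a control by Rag GTPases at the lysosome surface. Fibroblasts of the embryo are defined instead by collagen, elastic fiber and small proteoglycan genes, and in culture by continued division.

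The libraries held about 45000000 aligned reads for MEF, 45000000 for Dox (-) and 44000000 for Dox (+), so that 3 reads on an exon of 150 bp corresponded to 0.444 to 0.455 RPKM. Mitf itself was at 1.52 RPKM in MEF, 30.8 in Dox (-) and 1544 in Dox (+), a 50.1-fold difference. The exon highest in either library held 104 and 5164 reads, a ratio of 50.8 (interval 41.8 to 62.3), and 10 of its 14 exons with reads were more than 2-fold higher. The Dox (-) level was itself above that of MEF. Wherever reads or their ratios are given, they are those of the exon highest in either library, so a read ratio can differ from the ratio of gene levels. The median log2 fold change of all genes compared, computed on RPKM + 1, was 0.23, and list medians below are read against it. List counts are read against the shares of all genes compared, 1.64% higher and 5.41% lower at 4-fold, and 10.8% and 11.1% at 2-fold. A gene at or under 10 RPKM in 1 library was compared only through its level in the other, which set its direction. The 2 directions were uneven at the 4-fold limit, where 23.3% of the genes past it were higher, and even at 2-fold, where 1438 genes (10.8%) were higher and 1470 (11.1%) lower. Dividing Dox (+) by the median ratio changed the split to 158 higher and 821 lower at 4-fold and to 828 and 1853 at 2-fold. The genes nearest the limit were Hspa12b (6.62 and 26.5 RPKM) and Sesn1 (51.5 and 12.9) on the inside and Net1 (20.8 and 82.97) and Xlr4a (42.6 and 10.6) on the outside. Net1 and Xlr4a were chosen after the values were seen.

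The single exon that set a gene's level was mostly matched by the other annotated exons, which are not all separate. Among higher genes with at least 3 exons with reads, 157 of 190 had every such exon more than 2-fold higher. Among lower genes 570 of 653 had every such exon more than 2-fold lower. Annotated exons can overlap and share reads: Tyrp1 had 14 with reads but 8 separate ones. Genes with near-equal exon counts, described further on, are included, so exon counts here and below are not independent checks. The highest exon was shorter than 50 bp in 66 higher and 236 lower genes, and it overlapped another gene in 19 and 41. Strand was not used in the counting, so reads of overlapping genes could not be told apart. Of the genes given with values below, this applies to Slc24a5, Mt2, Ftl1, Fosl1, Hmga1, Phospho1, Cdkn1a, Igf2, Hmgcs1, Irf5 and C2. The highest exon was shorter than 20 bp for Myo5a, Rab3b, Atp6v1c2, Atp6v0a1, Ndrg1, Car9, Car12, Tnnt2, Upp1, Ltbp2, Igf2, Pappa2, Idi1 and Cx3cr1, where a few bases carry the level.

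**Figure D1:**
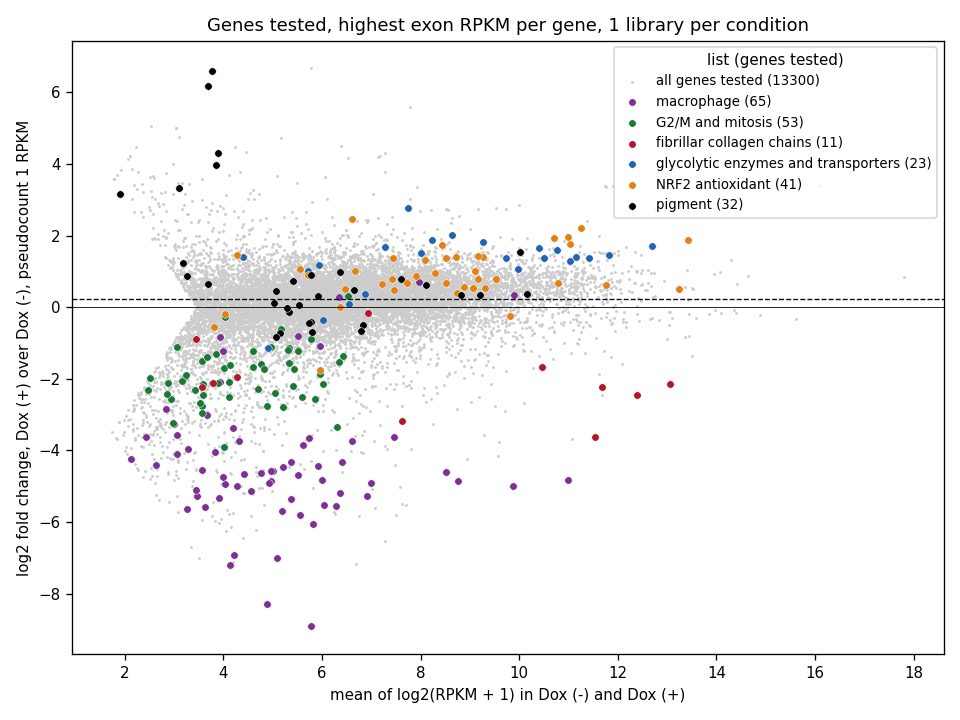
Each point is 1 of the 13300 genes compared; the x axis is the mean log2(RPKM + 1) of the 2 libraries, the y axis the log2 fold change of Dox (+) over Dox (-), and colors mark members of 6 gene lists. Pigment genes lie among the highest points, and macrophage and collagen genes lie in the lower part of the plot.

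Pigment cell genes held several of the largest differences, but a minority of the list moved. Of 42 genes listed, 32 were compared, and 6 were more than 4-fold higher and none lower, with a median log2 fold change of 0.46. All 6 were under 3 RPKM in Dox (-), so they were compared only because they exceeded 10 RPKM in Dox (+). That minimum set their direction. Promoter windows from RefSeq (GRCm38.p6) of 4 higher genes with pigment cell roles, 1 gene of the hypoxia response and 1 glutathione transferase are printed here, because they carry the E-box motifs whose shares are given further on. Each runs 5′ to 3′ on the gene's strand, with the motif or its reverse complement in capitals.
Tyrp1, chr4:80834155-80834183, plus strand, motif at -47 from the start: tggggagggagTCATGTGctgcctagtag
Trpm1, chr7:64153682-64153710, plus strand, motif at -142: ccaaatcctcaTCATGTGcccaccccaaa
Tspan10, chr11:120442599-120442627, plus strand, motif at -21: atgtgactcctCACATGAtaccactgtga
Mlph, chr1:90915041-90915068, plus strand, motif at -48: caggagtagccCACGTGatctgagccgc
Bnip3, chr7:138909598-138909625, minus strand, motif at -108: cgcacgcgccgCACGTGccacacgctcc
Gstp3, chr19:4059644-4059672, minus strand, motif at -214: tgggaggcttaTCATGTGaccatgtgtgc

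Among the melanin enzyme and matrix genes, Tyrp1, which encodes an enzyme of eumelanin synthesis, had 0 RPKM in MEF, 0.520 in Dox (-) and 109.6 in Dox (+). Its highest exon carried 2 and 709 reads, a ratio of 363 with a counting interval of 100 to 2999.6. Mlana, which encodes a melanosome membrane protein needed for PMEL maturation, was at 0.585, 0.390 and 133 RPKM, with 0 and 568 reads on its highest exon, at least 194-fold higher against a floor of 3 reads. Both genes were near 0 in both fibroblast libraries without Dox and had every exon with reads more than 2-fold higher. Pmel, the amyloid-forming melanosome matrix protein, was at 4.96 and 12.96 RPKM, short of 4-fold. Tyr, the rate-limiting enzyme of melanin synthesis, stayed under 10 RPKM, with no read on its highest exon in Dox (-) and 19 in Dox (+) (0 and 2.37 RPKM). Dct, which acts between TYR and TYRP1 products, was at 0.798 and 0.900 RPKM, so the enzymes of the pathway did not stand at like levels after 6 days.

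The carriers that bring melanosomes to the cell edge included 3 genes more than 4-fold higher. Rab27a, the GTPase on mature melanosomes, was at 6.45, 2.33 and 64.2 RPKM in MEF, Dox (-) and Dox (+), a 27.6-fold difference with 9 of 9 exons more than 2-fold higher. Mlph, the linker from RAB27A to myosin Va, was at 5.66, 2.63 and 55.8 RPKM, and its highest exon held 1 read and 135 reads (ratio 138, interval 24.4 to 5493). Myo5a, the motor of this complex, was already at 609.9 RPKM in Dox (-) and reached 1763, more than 2-fold but less than 4-fold higher, with 48 of 49 exons more than 2-fold higher. Mreg, whose product takes part in melanosome transfer, was at 2.69, 1.71 and 26.2 RPKM (15.3-fold). Of the 8 transport genes compared, 4 were more than 2-fold higher, with a median of 0.75. In the whole Rab family, 3 of 46 genes passed 4-fold, which were Rab27a, Rab3b (4.68 and 39.5 RPKM) and Rab3c (3.20 and 32.5 RPKM), both GTPases of regulated exocytosis, although Rab3b was also at 59.6 RPKM in MEF.

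The sorting complexes of the melanosome had no member past the limit. The 15 subunits of the complexes that sort cargo to early melanosomes (BLOC and AP-3 among them) had log2 fold changes from -0.83 to 0.98 and a median of 0.47. Among 6 pigment transporters and channels, Trpm1, a cation channel first known from melanocytes, was higher, from 0.254 to 10.3 RPKM and at least 11.2-fold by its reads. Slc24a5, the melanosome potassium-dependent sodium and calcium exchanger, was lower, at 44.5 and 26.6 RPKM. Gpr143, the ocular albinism receptor of the melanosome, stayed under 10 RPKM with 0 and 31 reads. Oca2 and Rab17 were at 0 in both libraries. In a group of pigment cell genes assembled after the values were seen, Bace2, a protease that cuts PMEL, was at 4.14, 20.6 and 387 RPKM (18.7-fold), and Tspan10, a tetraspanin, had 3 and 106 reads on its highest exon (ratio 36.1, interval 12.03 to 178).

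Genes that specify or guide the melanocyte lineage were compared separately. Of 10 compared, 2 were more than 4-fold higher and none lower, 5 were more than 2-fold higher and 2 lower, and the median was 0.94. Besides Mitf, the gene past 4-fold was Lef1, a nuclear partner of beta-catenin that also binds MITF (5.56 and 23.7 RPKM, 4.26-fold). Ednrb, the endothelin receptor of melanoblasts, was at 26.7 and 53.5 RPKM, and Met, the hepatocyte growth factor receptor, at 18.4 and 52.9, which is more than 2-fold higher. Edn1, an endothelin ligand, was more than 2-fold lower, at 15.01 and 4.19 RPKM. Sox10, which acts upstream of Mitf in the neural crest, was under 10 RPKM and lower in Dox (+), at 6.69 and 1.66 RPKM. Ednrb and Sox10 were chosen after the values were seen.

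The proton pump that acidifies melanosomes and lysosomes showed 2 subunits past 4-fold. Of 20 subunits compared, 2 were higher and none lower, with a median of 0.50 (0.79 for the 9 genes of the catalytic sector and 0.17 for the 11 of the membrane sector). Atp6v0d2, a tissue-restricted subunit of the membrane sector, was at 3.26, 4.44 and 551 RPKM, a 124-fold difference (interval 52.8 to 383). Atp6v1c2, a tissue-restricted subunit of the catalytic sector, was at 3.90 and 24.5 RPKM, with no read and 14 reads on its highest exon, which bounds the difference at 4.77-fold or more. Atp6v0e2 was just short of the limit (32.9 and 129 RPKM). The widely used membrane subunits Atp6v0a1 (383 and 188 RPKM) and Tcirg1 (182 and 93.4 RPKM), the second a leading subunit of macrophages and osteoclasts, were lower. The pump list therefore held both tissue-restricted subunits that were higher and membrane subunits that were lower.

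Control of the MiT/TFE factors at the lysosome included 1 member past 4-fold among 21 Rag and folliculin genes, with a median of 0.22. This was Rragd, the GTPase that recruits MITF and its relatives (7.15 and 46.1 RPKM, 6.44-fold). Fnip2, a partner of folliculin, was at 35.2 and 106 RPKM, and Flcn itself at 101 and 101. The related factor Tfec, which is abundant in macrophages, was lower (10.4 and 1.20 RPKM), and Tfeb was at 32.5 and 23.1. Of 93 lysosome genes compared, none was more than 4-fold higher and the median was -0.07. More than 4-fold lower were 7 genes (7.53%, against 5.41% of all genes compared). The 7 included Ctss (494 and 12.6 RPKM), Laptm5 (694 and 22.04) and Cd68 (614 and 49.2), which also belong to the macrophage genes described further on, whose summed level was 33443 RPKM in Dox (-) and 2608 in Dox (+). The others were Ctsc, Man2b1, Mcoln2 and Slc11a1. Among the hydrolases, Naglu (81.7 and 197 RPKM) and Gla (86.3 and 199), which degrade heparan sulfate and glycosphingolipids, were more than 2-fold higher. Of 39 autophagy genes, Bnip3, given below, passed 4-fold, and the median was 0.23, that of all genes. Sqstm1, the cargo receptor p62, was at 2582 and 8218 RPKM, and Hpse, a lysosomal heparanase, at 19.4 and 128. Flcn and Hpse were chosen after the values were seen.

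Most genes of glycolysis were higher. Of 23 enzymes and transporters compared, 19 were more than 2-fold higher and 1 lower, 2 passed 4-fold, and the median was 1.40. The summed level of the list was 15555 RPKM in Dox (-), 44246 in Dox (+) and 26263 in MEF, so the MEF library lay between the others. Slc16a3, the lactate exporter, was at 224, 80.9 and 554 RPKM in MEF, Dox (-) and Dox (+) (6.85-fold). Slc2a1, the basal glucose transporter, was at 136, 198 and 796 RPKM (4.02-fold). Other steps of the chain were more than 2-fold higher, from Hk2, which phosphorylates glucose (85.6 and 279 RPKM), through Pfkl (327 and 1149.6) and Aldoa (3660.2 and 12060.4) to Ldha, which makes lactate (1399 and 3698). Pfkfb3, which makes the allosteric activator of phosphofructokinase, was at 156 and 575 RPKM. The members with a lower level in Dox (+) were Aldoc, an aldolase of brain, at 43.2 and 19.01 RPKM, and Ldhb, the lactate dehydrogenase of heart, at 71.9 and 56.3. Slc2a1, Hk2, Pfkl, Aldoa, Ldha, Pfkfb3 and Ldhb were chosen after the values were seen.

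The hypoxia-inducible factors (HIFs) and their targets, taken as 1 list, were higher in part. Of 17 compared, 4 were more than 4-fold higher and none lower, 7 were more than 2-fold higher and 2 lower, and the median was 0.83. Egln3, a prolyl hydroxylase that marks HIF for degradation, was at 16.2, 12.6 and 149.9 RPKM in MEF, Dox (-) and Dox (+) (11.9-fold). Ndrg1, a stress-response gene, was at 239 and 1085 RPKM, Bnip3, a mitophagy receptor, at 41.4 and 186, and Adm, the vasodilator adrenomedullin, at 45.2 and 181. Hif1a was at 419 and 336 RPKM and Epas1, which encodes HIF-2 alpha, at 27.2 and 11.5, so the transcripts of the factors were not higher. Car9 (62.2 and 33.3 RPKM) and Car12 (20.4 and 7.58), surface carbonic anhydrases that HIF induces, were lower. A group assembled after the values were seen added Angptl4, an inhibitor of lipoprotein lipase (40.97 and 576 RPKM, 14.05-fold), Ak4, a mitochondrial adenylate kinase (10.6 and 61.1), Cox4i2, the hypoxic subunit of cytochrome oxidase (8.42 and 46.3), and the repressor Bhlhe40 (129 and 553). Hif1a was chosen after the values were seen.

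Antioxidant genes controlled by NRF2 were higher as a broad but moderate set, as were some other lists. Of 41 compared, 17 were more than 2-fold higher (41.5%) and 1 lower, 2 passed 4-fold, and the median was 0.78. Their summed level was 29947 RPKM in Dox (-), 69042 in Dox (+) and 27870.4 in MEF. Ribosomal protein genes (median 0.70, 26.7% more than 2-fold higher) and the proteasome (0.66, 6.45%) had medians close to this list. Whether its higher level is particular to NRF2 targets was not tested. Nqo1, a quinone reductase, was at 53.6, 40.5 and 228 RPKM (5.63-fold), and Gstp1, a glutathione transferase, at 1601, 1139.5 and 5224 (4.58-fold). The metallothioneins Mt1 (1032 and 3990.4 RPKM) and Mt2 (856 and 3272), which bind zinc and copper, the heme oxygenase Hmox1 (1131 and 3862) and the ferritin light chain Ftl1 (5747 and 21143) were more than 3-fold higher. Sod3, the extracellular superoxide dismutase, was lower, at 113 and 32.9 RPKM. In the glutathione transferase family 9 of 19 genes were more than 2-fold higher and 1 lower, with a median of 0.95. Gstp2 and Gstp3 were both 7.22-fold higher (378 and 2727 RPKM, and 4.29 and 30.99), but they are near-identical copies of Gstp1 and reads may be shared among them. Iron and copper handling did not move past 4-fold in either direction (17 genes, median 0.37).

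Genes of large cellular machines had medians above that of all genes but below 2-fold. The 77 genes of oxidative phosphorylation had a median of 0.66, with 12 more than 2-fold higher (15.6%, against 10.8% of all genes compared) and none lower. The 31 proteasome subunits had the same median of 0.66, with 2 more than 2-fold higher (6.45%, below the share of all genes). The 90 genes with ribosomal protein symbols, which also take in the S6 kinases, had a median of 0.70. Of these Rpl36, of the large subunit, was past 4-fold (52.6 and 225 RPKM). The 16 genes of the housekeeping list stood at a median of 0.55, with 11 of them above the median of all genes. Genes of the unfolded protein response went the other way, with a median of -0.42 over 25 genes and Hsp90b1, the chaperone GRP94, at 3255 and 1636 RPKM. Genes of the integrated stress response (41 compared) were more than 2-fold higher in 12 cases and lower in 1 (Cbs, past 4-fold), with a median of 0.55. The exons of Cbs that were more than 2-fold lower were not a majority of its exons with reads. Fatty acid and lipid genes (46, median 0.14), MHC class I genes with those of peptide processing (15, median -0.39) and contractile genes (31, median 0.34) had no member past 4-fold.

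**Figure D2:**
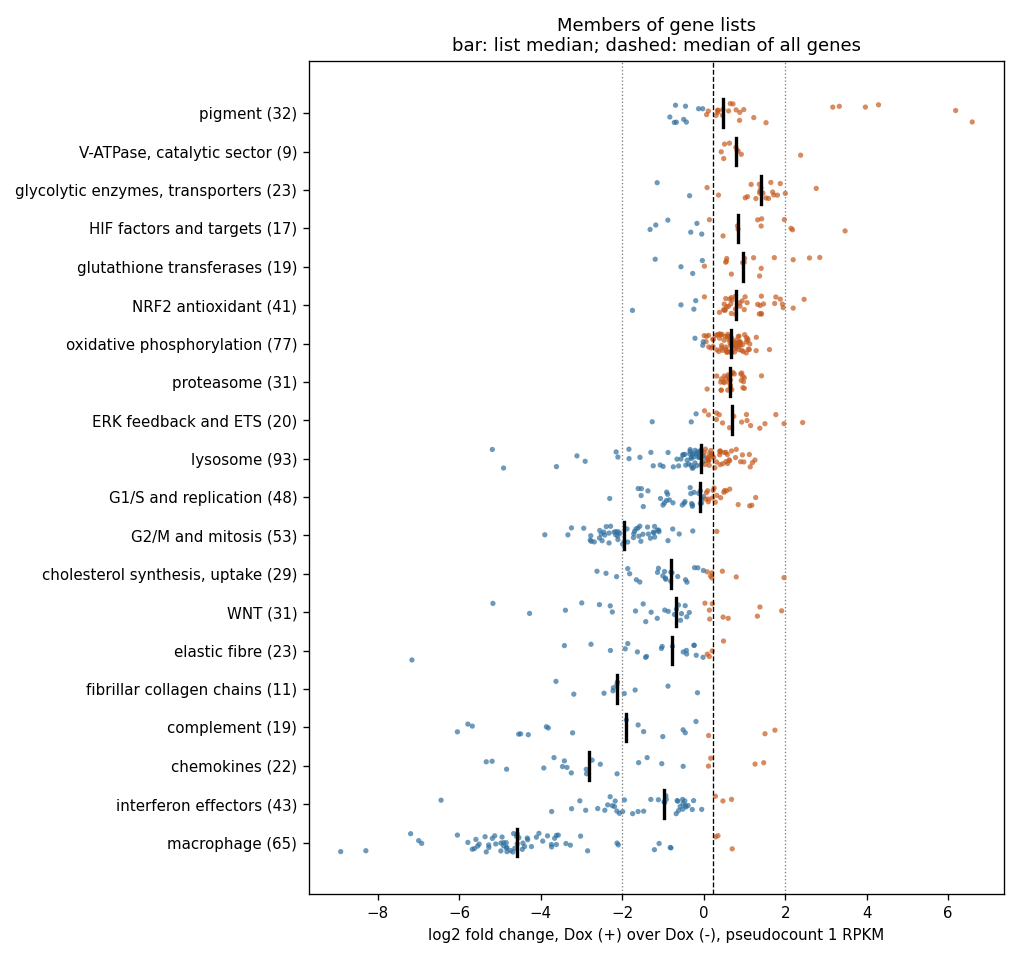
Each dot is a gene compared in 1 of 20 gene lists (number of genes in brackets), placed by its log2 fold change of Dox (+) over Dox (-) on RPKM + 1 (x axis), orange above 0 and blue below; black bars are list medians, dotted lines mark 4-fold and the dashed line is the median of all genes, 0.23. Medians run from -4.60 for macrophage genes to 1.40 for glycolysis, and the pigment list has a median of 0.46 with a few members far to the right.

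Feedback genes of the ERK pathway and their ETS partners were higher more often than lower. Of 20 compared, 8 were more than 2-fold higher and 1 lower, 1 passed 4-fold, and the median was 0.69. Dusp4, a nuclear phosphatase of MAP kinases, was at 1.43, 50.4 and 276 RPKM in MEF, Dox (-) and Dox (+) (5.47-fold). Etv4, an ETS factor, was at 38.7 and 134 RPKM. Spry1, another feedback inhibitor, was lower (30.6 and 12.1 RPKM). Among 31 AP-1 and immediate early genes, Fosl1 was higher (23.5 and 111 RPKM, on an exon that overlaps another gene), and Fos was at 61.5 and 22.7.

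Growth factor genes lay on both sides. Among 36 FGF, PDGF and EGF ligands and receptors, 3 were more than 4-fold higher and 4 lower, and the median was -0.13. The higher ones included 2 ligands of the EGF receptor, Areg (5.10 and 40.5 RPKM, 7.94-fold) and Btc, whose highest exon held 3 and 59 reads (ratio 20.1, interval 6.56 to 100.3). Ereg, a further ligand of that receptor, was at 41.6 and 147 RPKM, short of the limit. Ptn, the heparin-binding factor pleiotrophin, was lower, from 349 in MEF and 7687 in Dox (-) to 599 RPKM (12.8-fold). Vegfd (383 and 85.5 RPKM) and Pdgfd (62.8 and 15.5), ligands of the lymphatic VEGF and PDGF receptors, were lower as well. The other genes past 4-fold were Angptl4, higher and given above, and Pdgfrl, a PDGF receptor-like gene, lower (261 and 65.1 RPKM).

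Several small groups of higher genes were assembled after the values were seen, so they are a description of the top of the list and no more. The first comprised enzymes and regulators of tetrahydrobiopterin, the cofactor of phenylalanine and tyrosine hydroxylation: Gch1, the first enzyme of its synthesis (43.1 and 394 RPKM), Pcbd1, which recycles it (9.88 and 47.1), and Gchfr, the regulator of GCH1 (2.57 and 13.9). The second comprised nuclear regulators and MAP kinase phosphatases. It held the architectural chromatin proteins Hmga1 (99.7 and 642 RPKM) and Hmga2 (151 and 684), the phosphatase Dusp9 (2.44 and 40.1) and the YAP partner Tead4 (5.47 and 28.7). In the third, muscle genes, were the ubiquitin ligase Trim63 (0 and 44 reads on its highest exon, at least 15.00-fold), skeletal actin Acta1 (80.7 and 372 RPKM) and cardiac troponin Tnnt2 (66.7 and 268). Desmin (Des), the intermediate filament of muscle, was at 571 and 1805 RPKM, short of 4-fold.

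Genes of the epidermis and of mineralized tissue appeared there too. Late cornified envelope genes, which cross-link the outer skin, included Lce1g (3.92 and 97.6 RPKM) and Lce1a2, which had no read in Dox (-) and 72 in Dox (+) (at least 24.5-fold). Both had 2 exons with reads, too few for the check of near-equal exon counts described below. Their neighbor Lce1f (1.17 and 11.4 RPKM) had 1 of 2 exons more than 2-fold higher. Krt19, a simple-epithelium keratin, was at 7.23 and 52.3 RPKM. Phospho1 (70.4 and 355 RPKM) and Dmp1 (6.73 and 69.6) take part in mineralization of bone and teeth. The prolactin-related genes Prl2c2 (32.7 and 625 RPKM) and Prl2c3 (33.9 and 689) held the same 2969 reads in Dox (+) and share sequence, so they count as 1 signal. Single genes with large differences were Upp1, uridine phosphorylase (16.7 and 398 RPKM on an exon of 8 bp, with 23 of 23 exons more than 2-fold higher), Sema7a, a membrane-anchored semaphorin (179.6 and 1055), Ramp3, a receptor partner of adrenomedullin (8.52 and 119), and Htra3, a secreted protease (76.1 and 623). Krt19, Phospho1, Ramp3 and Htra3 were chosen after the values were seen.

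A part of the apparent classes among the higher genes rested on an unusual distribution of reads. Among genes with at least 4 separate exons, 33 of 164 higher genes (20.1%) carried near-equal read counts on exons of very different length, against 42 of 596 lower genes (7.05%) and 231 of 9653 others (2.39%). Slc17a2, a phosphate transporter gene of kidney and liver, had exactly 62 reads on each of 12 exons of 87 to 2886 bp in Dox (+), and its neighbors Slc17a1, Slc17a3 and Slc17a4 had the same 62 reads on their highest exons. Chrnd, a subunit of the muscle acetylcholine receptor, had 35 reads on 11 of 12 exons of 45 to 1490 bp. For comparison, exon counts of Tyrp1 in Dox (+) ran from 344 to 2306 over exons of 147 to 1041 bp. Near-equal counts were found for the keratins Krt9 (0 and 21.1 RPKM), Krt14 (2.12 and 26.9), Krt16 (0.946 and 25.1) and Krt17 (1.71 and 28.8), for the osteocalcin genes, for the intestinal-type alkaline phosphatases and for the zinc finger gene Zfp970 with its neighbors. The levels of these genes are therefore uncertain, and the cause was not tested. Without them 185 genes were higher and 677 lower. The keratin family, with 5 of 8 genes higher and a median of 2.93, had a median of -0.26 without them. None of the genes given with values in the paragraphs on pigment, proton pump, glycolysis, hypoxia and antioxidant classes, where enough exons could be assessed, carried such counts.

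**Figure D3:**
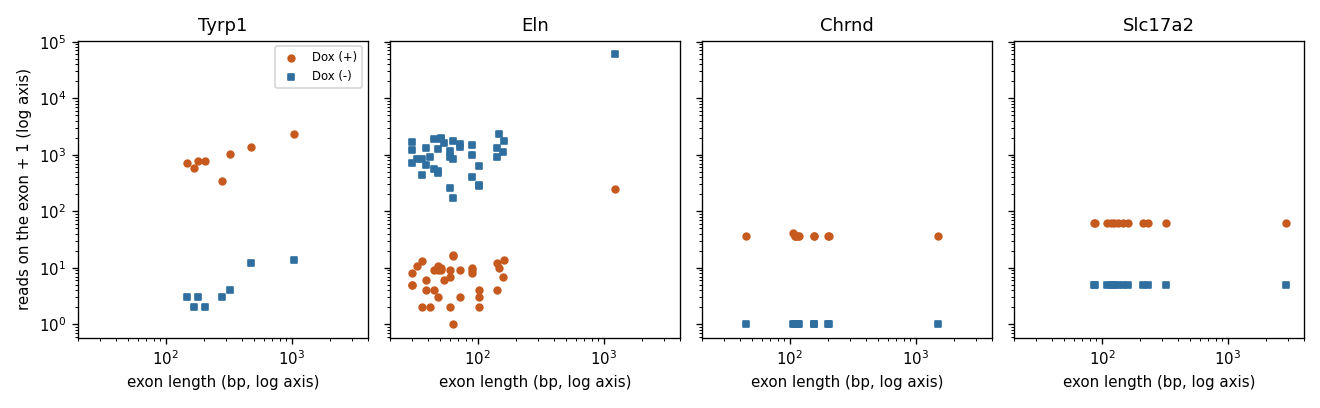
For Tyrp1, Eln, Chrnd and Slc17a2, each point is an exon, with its length in bp on the x axis and its reads plus 1 on the y axis (both log axes), in Dox (+) (orange circles) and Dox (-) (blue squares). Reads differ between exons of Tyrp1 (344 to 2306 in Dox (+)) and Eln (171 to 60284 in Dox (-)), while Chrnd and Slc17a2 sit on flat lines at 35 and 62 reads.

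Promoters were searched for E-boxes on both strands in RefSeq windows from 250 bases before to 50 after the start, of which 184 belonged to 141 of the 218 higher genes. TCATGTG, the core of the M-box bound by MITF, was in 15 of the 184 (8.15%, Wilson interval 5.00% to 13.01%), in 24 of 589 windows of lower genes (4.07%, 2.75% to 5.99%) and in 263 of all 11824 (2.22%). CATGTG, which is contained in TCATGTG, was in 18.5% of windows of higher genes, 13.9% of lower genes and 8.75% of all. CACGTG was in 7.07%, 6.45% and 9.90%, in that order, so this E-box was not more frequent among the higher genes. The palindromic core of the CLEAR element, bound by TFEB in lysosomal genes and containing CACGTG, was in 0% of higher and lower windows and 0.677% of all. Leaving out genes with near-equal exon counts gave 13 of 155 windows (8.39%) for TCATGTG. The windows printed above for Tyrp1, Trpm1, Tspan10 and Gstp3 are among the matches, windows of 1 gene overlap and are not independent, and a match is a stretch of letters and not a measured binding site.

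Fibrillar collagen genes of the fibroblast matrix were a lower class. Of 11 fibrillar collagen chains, 8 were more than 4-fold lower and none higher, with a median of -2.13. Their summed level was 24622 RPKM in MEF, 51469.6 in Dox (-) and 9747 in Dox (+), so the Dox (-) cells stood above and the Dox (+) cells below wild-type fibroblasts. Col1a1, which lies beside the inserted transgene, was at 4958, 12562 and 2301 RPKM (5.46-fold lower), with 51 of 51 exons more than 2-fold lower. Its partner Col1a2, on another chromosome, was at 9087, 17942 and 4089 RPKM (4.39-fold lower). Col3a1, the chain of reticular fibers, showed the larger difference (3319.5, 10487 and 847 RPKM, 12.4-fold). Col5a2 (7137 and 1523 RPKM) and Col11a1 (592 and 63.97), which nucleate fibrils, were lower, while Col5a1 (2519 and 783), Col5a3 (128 and 115) and Col11a2 (13.8 and 7.07) did not pass 4-fold. Col1a2, Col5a2, Col5a1, Col5a3 and Col11a2 were chosen after the values were seen.

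Chains that decorate or link fibrils and the enzymes that finish them moved less. Of 19 other collagen chains 3 were more than 4-fold lower and 12 more than 2-fold lower, with a median of -1.20, including Col14a1 (146 and 2.95 RPKM) and Col12a1 (2772 and 433), both associated with fibrils. None of 20 modifying enzymes and chaperones passed 4-fold (median -0.52). P4ha1, the prolyl hydroxylase subunit that is also a HIF target, was at 1005 and 1106 RPKM, and Pcolce2, an enhancer of procollagen cleavage, was higher (18.3 and 57.1).

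Elastic fiber genes contained the greatest fold among the matrix genes. Eln, elastin, was at 20 RPKM in MEF, 1229.6 in Dox (-) and 7.58 in Dox (+), 162-fold lower as a ratio of gene levels. The exon highest in either library held 1660 and 7 reads, a ratio of 232 (interval 112 to 578). The Dox (+) level was also below that of MEF. Of 23 genes compared, 4 were more than 4-fold lower and none higher, with a median of -0.77. Fbn2, the fibrillin of the embryo (238 and 21.3 RPKM), Ltbp2, a fibrillin-binding protein (1905 and 279), and Mfap4, a microfibril protein (390.4 and 78.96), passed the limit. Fbn1 (1131 and 365 RPKM) and the cross-linking enzyme Lox (6027 and 2276) were more than 2-fold lower. Among 9 small leucine-rich proteoglycans, which control fibril width, 3 passed 4-fold, namely Lum (226 and 44.8 RPKM), Ogn (617 and 111) and Aspn (875 and 55.4), while Dcn was at 1637 and 719.5. Fbn1, Lox and Dcn were chosen after the values were seen.

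Fibroblast identity was only partly lower. Of 16 fibroblast markers compared, 5 were more than 4-fold lower (the collagens Col1a1, Col1a2 and Col3a1, Lum and Postn) and none higher, with a median of -0.83. Vim, the mesenchymal intermediate filament (12302 and 24344 RPKM), Thy1, a fibroblast surface protein (2014 and 3608), and the limb mesenchyme factor Prrx1 (336 and 474) were above their Dox (-) levels. Mesenchymal transcription factors (35 compared) had a median of -0.04 with 2 lower (Meox1 and Heyl, 5.71% against 5.41% of all genes compared). The 15 Hox genes, which record body position, had none past 4-fold (median -0.57). Of 41 matricellular and proteoglycan genes, 6 were more than 4-fold lower and none higher (median -0.47), with Postn, periostin, at 7703 and 1400.4 RPKM and Ccn3 at 739 and 141. The summed level of this list was higher, at 222246 RPKM in Dox (-), 335532 in Dox (+) and 94132 in MEF. Gpc1, a glypican that binds heparin-dependent growth factors, was higher (153 and 570.05 RPKM). Among 36 matrix proteinases and inhibitors, Serpinb2, an inhibitor of plasminogen activators, was higher (8.47 and 44.02) and Mmp9, Adam8, Adamts12 and A2m were lower. Other matrix genes collected after the values were seen included C1qtnf3 (746 and 21.1 RPKM), Dpt, dermatopontin (123 and 4.15), and Cemip, a hyaluronan-degrading protein (619 and 50.5).

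Mitotic genes were lower almost without exception. Of 53 genes of the G2 and M phases compared, 28 were more than 4-fold lower, 48 more than 2-fold lower and none higher, with a median of -1.95. Their summed level was 5434 RPKM in MEF, 2925 in Dox (-) and 852 in Dox (+). Mki67, the proliferation antigen, was at 80.4, 61.3 and 3.16 RPKM (19.4-fold lower). Cdca3, a trigger of mitotic entry (250 and 23.9 RPKM), Nuf2, of the kinetochore (31.7 and 3.25), and Sgo1, which protects cohesion (23.2 and 1.55, on 46 and 3 reads), were among the lowest. The core enzymes and cyclins were lower too, among them Top2a, which untangles chromosomes (114 and 19.1 RPKM), Ccna2 (74.5 and 13.4), Ccnb1 (28.2 and 7.997) and Cdk1 (137 and 52.8). Pttg1, securin, was the member with a higher level in Dox (+) (82.03 and 103 RPKM). Top2a, Ccna2, Ccnb1, Cdk1 and Pttg1 were chosen after the values were seen.

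Genes of G1 and DNA replication did not follow the mitotic genes. Of 48 compared, 1 passed 4-fold (Mcm10, lower), 3 were more than 2-fold higher and 9 lower, with a median of -0.10. Pcna, the replication clamp, was at 91.5 and 86.2 RPKM, Mcm2, of the replicative helicase, at 41.6 and 58.99, and the G1 cyclin Ccnd1 at 368 and 891. The p53 targets and cell cycle inhibitors (33 compared) had a median of 0.06, and Sesn1 was past 4-fold, lower. Cdkn1a, which encodes p21, was at 1019 and 1602 RPKM and Cdkn2a, of the INK4A and ARF locus, at 173 and 222. Gadd45a, a p53 and stress target, was at 54.3 and 179 RPKM. In bulk RNA, fewer dividing cells and less mitotic RNA per dividing cell cannot be told apart, and the same holds for each cell type named below. Pcna, Mcm2 and Cdkn2a were chosen after the values were seen.

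**Figure D4:**
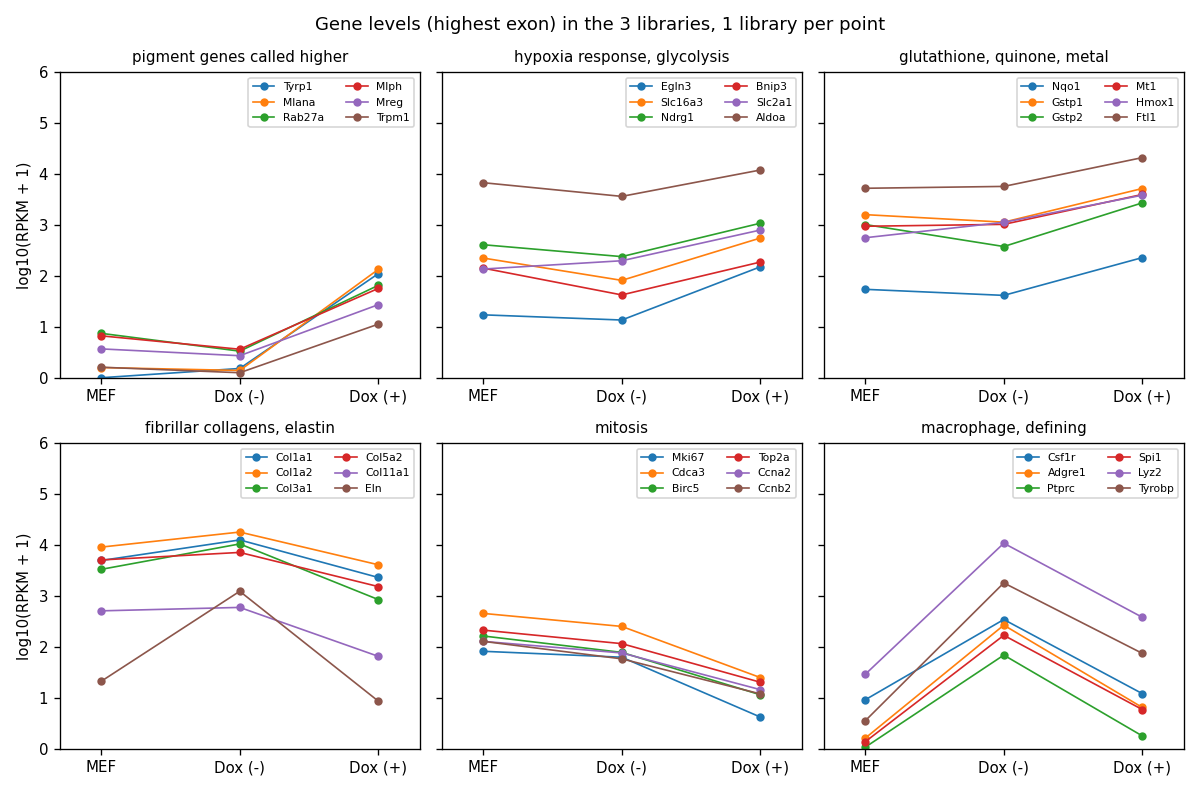
Levels as log10(RPKM + 1) (y axis) in the libraries MEF, Dox (-) and Dox (+) (x axis), with a line for each gene in 6 panels and 1 library per point. The pigment, glycolysis and antioxidant genes drawn are highest in Dox (+), the collagens and macrophage genes drawn are highest in Dox (-), and Eln in Dox (+), at 7.58 RPKM, is below its MEF level of 20 RPKM.

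Insulin-like growth factor genes were lower in part. Of 18 compared, 3 were more than 4-fold lower and 1 higher, with a median of -0.21. Igfbp3 (14.8, 2173 and 180.3 RPKM in MEF, Dox (-) and Dox (+)) and Igfbp5 (3.13, 353 and 28.2) encode binding proteins, and Igf1 (31.4, 488 and 100.3) a ligand. Igf2, the fetal ligand, did not pass 4-fold (6022 and 1653 RPKM), and its highest exon overlaps another gene. Pappa2, a protease that cuts binding proteins, was higher (3.76 and 32.2 RPKM).

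WNT pathway genes that were lower included secreted antagonists. Of 31 compared, 7 were more than 4-fold lower and 1 higher, with a median of -0.67. The secreted WNT-binding proteins Sfrp2 (126 and 2.53 RPKM), Sfrp4 (65.6 and 5.33), Sfrp1 (714 and 120.05) and Frzb (29.9 and 5.51) accounted for 4 of the 7. The others were the R-spondin receptor Lgr5 (45.1 and 1.38 RPKM), its ligand Rspo2 (75.4 and 14.6) and the ligand Wnt16 (42.6 and 4.47). The higher members were Lef1, named above, and below 4-fold Lgr6 (9.09 and 25.3 RPKM) and Tcf7 (7.41 and 19.9). The TGF-beta list (27 compared) held 2 lower genes, a share of 7.41% against 5.41% of all genes compared. These were Ltbp2, given above, and Fst, the activin trap follistatin, at 343 and 44.8 RPKM, while Tgfb1 was at 283 and 592. Of 18 BMP genes 2 were lower, Bmp4 (46.8 and 10.00 RPKM) and Bmp6 (10.4 and 1.43), while the antagonist Grem1 was at 347 and 678. Sfrp1, Frzb and Rspo2 were chosen after the values were seen.

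Some genes of cholesterol synthesis and uptake were lower. Of 29 genes compared, 3 were more than 4-fold lower and 1 higher, 10 were more than 2-fold lower, and the median was -0.81. Hmgcs1, which makes HMG-CoA, was at 423, 351 and 56.3 RPKM (6.24-fold lower). Insig1, the sterol-sensing retention factor, was at 79.6 and 17.3 RPKM. Idi1, which isomerizes isoprenoid units (778 and 219.7 RPKM), and Sqle, the squalene epoxidase (300.3 and 100.5), were more than 2-fold lower. Of the sterol exporters, Abcg1 was at 9.71 and 41.00 RPKM (4.22-fold higher) and Abca1, short of 2-fold, at 68.9 and 121. Idi1 and Sqle were chosen after the values were seen.

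Schwann cell and glial genes, derivatives of the neural crest like melanocytes, were lower. Of 15 listed, 9 were compared, and 5 were more than 4-fold lower and none higher, with a median of -2.17. Gfap (0.176, 50.00 and 4.84 RPKM in MEF, Dox (-) and Dox (+)), Fabp7 (1.96, 144 and 24.3) and Cdh19 (0.0224, 14.4 and 0.722) mark glia and their precursors. Gfap and Cdh19 were compared because they exceeded 10 RPKM in Dox (-), so their direction was set by that minimum. Among 51 axon guidance and neurite genes 6 were more than 4-fold lower and 1 higher, with a median of -0.77. Plxnc1, a receptor of Sema7a, was lower (56.9 and 2.91 RPKM) where Sema7a was higher. Of the other cell types searched by markers, no lymphoid, mast or red cell marker was above 10 RPKM in either library, and of 4 endothelial markers compared Erg was lower. Fabp7 was chosen after the values were seen.

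The largest lower class was that of macrophages. Of 65 macrophage genes compared, 58 were more than 4-fold lower and none higher, with a median of -4.60, and their summed level was 999.6 RPKM in MEF, 33443 in Dox (-) and 2608 in Dox (+). All 8 defining markers (Csf1r, Adgre1, Ptprc, Spi1, Lyz2, Tyrobp, Fcer1g and Itgam) were lower, by 24.5- to 87.7-fold, and none was listed at 0 in Dox (+). Within the class, scavenger and lectin receptors were among the lowest. Mrc1, the mannose receptor, was at 0.880, 382 and 1.99 RPKM, and Fcrls, an Fc receptor-like gene, at 0.719, 1199 and 1.49 (at least 369-fold lower). Families named only by symbol overlap these genes and give no separate support. Of the members compared, 9 of 9 Cd300 genes, 5 of 5 Ms4a genes and 11 of 14 C-type lectin genes were lower. All 9 Cd300 genes, all 5 Ms4a genes and 9 of the 11 lectins are in the macrophage group or the leukocyte group given below. The families hold 12, 13 and 28 genes, and the lower members were compared because they exceeded 10 RPKM in Dox (-), so their direction was partly set by that minimum. The same holds for members of the macrophage list under 10 RPKM in Dox (+), such as Mrc1 and Fcrls. Csf1r, Lyz2, Tyrobp and Fcer1g exceeded that minimum in both libraries. In the macrophage list the members with a higher level in Dox (+) were Cx3cr1, Irf5 and Cyba. Cx3cr1 (194 and 316 RPKM) has a highest exon of 12 bp, and 4 of its 5 exons with reads were more than 2-fold lower. Irf5 was at 71.98 and 88.2 RPKM, with 12 of 13 exons lower. Cyba (838 and 1067) encodes an oxidase subunit not limited to phagocytes. A further 140 leukocyte genes were recognized among the lower genes after the values were seen, and without both groups 521 of the 719 lower genes remained. The MEF library was low as well, so macrophage RNA was high in the Dox (-) library alone among these 3. The Dox (-) library, labelled as fibroblasts, thus also held macrophage markers, and the part of this in the results for immune and lysosomal genes was not tested.

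Soluble immune genes were lower beside these markers. Of 22 chemokine genes compared, 14 were more than 4-fold lower and none was higher, with a median of -2.81. Of the 14, 12 stand outside the macrophage and leukocyte groups used here, but several of these, such as Ccl3, Ccl4 and Ppbp, are known products of macrophages or platelets. Pf4 (94.9 and 1.37 RPKM) and Ccl12 (127 and 2.50) attract leukocytes. Ccl2, the monocyte attractant that fibroblasts also make, was at 674 and 257 RPKM, and Cxcl12, the stromal chemokine, at 2798 and 1971. Ccl8 was higher, at 25.4 and 72.2 RPKM, short of 4-fold. Of 12 cytokines, Il15, Il18 and Tnf (35.2 and 0.473 RPKM) were lower, whereas Il11 (36.3 and 133) and Lif (41.8 and 98.2), which signal through gp130, were more than 2-fold higher. Of 19 complement genes 9 were lower (3 of them in the macrophage and leukocyte groups), with a median of -1.90, including C1qa (455 and 5.88 RPKM), a macrophage product, and C3 (134 and 4.81) and C4b (70.7 and 2.62), the central components. Masp1 (112 and 379 RPKM) and C2 (18.2 and 53.5), of the same cascade, were higher. Ccl2, Cxcl12 and C4b were chosen after the values were seen.

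Interferon-stimulated effectors were lower, while none of their controlling factors passed 4-fold. Of 43 effectors compared, 16 were more than 4-fold lower, 23 more than 2-fold lower and none higher, with a median of -0.98, and none of the 16 is in the macrophage and leukocyte groups used here, although leukocytes also express such genes. Ifi27l2a was at 3.70, 196 and 1.26 RPKM in MEF, Dox (-) and Dox (+) (at least 86.4-fold lower). Rsad2, the antiviral protein viperin, had 30 reads and no read (0.274, 20.2 and 0.593 RPKM, at least 9.78-fold lower). Isg15, a ubiquitin-like modifier (43.9 and 10.3 RPKM), Ifit1, which binds viral RNA (13.6 and 1.96), and Oas1a, an RNA sensor (141 and 41.2), were lower, the last short of 4-fold. The 15 signaling factors (STAT and IRF genes among them) had none past 4-fold and a median of -0.07. The macrophage sum was 33443 RPKM in Dox (-) and 2608 in Dox (+) in these libraries, and its part in the interferon values was not tested. Isg15, Ifit1 and Oas1a were chosen after the values were seen.

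A pair of further groups assembled after the values were seen concern imprinting and a gene cluster. Among imprinted genes, expressed from 1 parental copy, Meg3 (1619, 2837 and 209 RPKM) and Mirg (332, 225 and 37.6), noncoding RNAs of the same maternal cluster, Mest (471, 193 and 14.02) and Slc38a4 (258, 113 and 15.9) were lower. H19, another maternal noncoding RNA, was at 3783, 7519 and 2491 RPKM, short of 4-fold. The second group held 6 Ly6 genes of surface proteins taken from the genes already lower, so their shared direction was set by the choice. It gives no share of the Ly6 family. Their summed level was 4187 RPKM in Dox (-), 688 in Dox (+) and 920.4 in MEF. H19 was chosen after the values were seen.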

How the data were processed

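RNA was poly(A)-selected and sequenced from 1 library per condition. According to the submitters' processing notes, reads were converted with bcl2fastq 2.17.1.14, aligned to mm10 with TopHat2 2.0.10 and counted per exon with bedtools. The authors deposited RPKM values per exon of protein coding genes, pseudogenes and lincRNAs, in which reads are scaled to exon length and to library size. Of 234718 exons listed, 228132 matched an exon of GENCODE M21 and 226463 were kept for 22823 genes. A value column whose name matches no sample label was not used (1 column).

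The gene level was the highest exon RPKM, and genes exceeding 10 RPKM in either library or in both were compared. Genes counted as higher or lower when the RPKM ratio exceeded 4, and log2 fold changes used a pseudocount of 1 RPKM. Whole reads were recovered from RPKM and exon length at depths of 45000000, 45000000 and 44000000 aligned reads for MEF, Dox (-) and Dox (+). Of values up to 200 reads, 97.2%, 97.0% and 96.9% came out whole within 0.02 reads. Read ratios carry exact binomial 95% intervals, and a count of 0 was set to a floor of 3 reads. Intervals and floors cover counting error only. Exon counts were called near-equal when, over at least 4 separate exons whose lengths range 3-fold or more, at least 50% held within 5% (or 1 read) of a common count of 4 reads or more.

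Named genes were Mitf, the 20 largest differences in each direction, all pigment genes and, in each list, up to 4 members with the largest difference in each direction; others are marked where they appear or belong to groups said to be assembled after the values were seen. Some genes that this rule names are not reported here. Members and lists were chosen with earlier results of these data known. Values were processed with Python 3.11.15, pandas 2.3.3, NumPy 2.4.6, SciPy 1.17.1 and matplotlib 3.10.9, and the procedure was tested on simulated data. Alternatives changed the expression minimum, fold, pseudocount, gene summary, scaling and biotype. Exons of at least 50 bp only, and leaving out leukocyte or near-equal genes, were added after seeing the data.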

Additional observations from a re-analysis of the deposited data

How the results depend on the processing

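No paired analysis was possible because each condition had 1 library, and for the same reason no library could be left out. The 218 higher and 719 lower genes became 478 and 1447 with a minimum of 1 RPKM, 138 and 425 with 30 RPKM, 1438 and 1470 at 2-fold, 92 and 415 at 8-fold, 120 and 431 with a pseudocount of 5 RPKM, and 117 and 451 when reads were summed over all exons, which kept 112 of the 218 and 417 of the 719. Other choices stayed within 1.5 times, namely a pseudocount of 0.5 RPKM (203 and 688), the same exon in both libraries (261 and 812), the median of exons (225 and 776), scaling by the median ratio (158 and 821), protein coding genes (188 and 656), exons of at least 50 bp (192 and 668), genes without near-equal exon counts (185 and 677) and, for lower genes, those outside the leukocyte genes (521). Changes of sign were assessed only for list medians beyond 1.5-fold in either direction. Without near-equal genes, those of the keratin family (2.93 to -0.26) and of keratins with other epithelial genes (2.70 to -2.24) changed sign. That of skeletal muscle did too (1.04 to -0.11). With a pseudocount of 5 RPKM the chemokine median was -1.69 and the macrophage median -3.85. Depth limits the low genes, since 3 reads on an exon of 150 bp correspond to 0.444 RPKM at 45000000 reads, and fold differences against levels near that value have wide counting intervals.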
